A study of Mus musculus with 12 samples.

Results

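The interleukin 6 family is described here by 10 mouse genes. They are the ligands Il6, Lif, Il11 and Clcf1, the receptor subunits Il6st, Lifr, Osmr and Il11ra1, the transcription factor Stat3 and the feedback inhibitor Socs3. The members were taken by name, as every probe whose accession maps to 1 of these genes, though earlier results of these data were known. They were covered by 13 probes and were 10 of the 21367 genes named on the array, and all 10 passed the filter on dim probes.

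RNA was measured on 12 one-colour Agilent arrays of mouse embryonic fibroblasts (MEFs), connective tissue cells grown from C57BL/6 embryos at E12.5-E13.5, in 4 groups of 3 arrays. The groups carried a viral vector for a short hairpin RNA directed at the mRNA of p53 (shp53), a vector for oncogenic RAS (RASV12), shp53 and then RASV12 (here the shp53-first cells), or RASV12 and then shp53 (here the RASV12-first cells). The series title contrasts transformation that followed senescence with transformation of non-senescent cells. The design text describes 3 independent biological replicates in each group, and no group without a vector was analysed here, so a difference between 2 groups does not show which of them moved. A level is the log2 signal of a probe less the 75th percentile of its array, so that 0 is the 75th percentile, and levels of different probes are not compared. Differences are in log2 with their standard error (SE) from limma, fitted over the 12 arrays with 3 in each group, and an adjusted p (Benjamini-Hochberg over the 14447 genes tested) under 0.05 is called.

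Cytokines of this family bind a receptor subunit of their own, such as the interleukin 6 or interleukin 11 receptor, or the LIF or oncostatin M receptor, and nearly all of them signal through the shared subunit gp130, which Il6st encodes. The receptors activate JAK kinases, which phosphorylate STAT3, and STAT3 in turn induces SOCS3, an inhibitor that binds gp130 and limits the signal. In fibroblasts these cytokines are induced by inflammatory and RAS pathway signals through NF-kappaB, C/EBP and AP-1 factors, and interleukin 6 is a well known product of senescent fibroblasts. The arrays measure RNA only, neither secreted protein nor STAT3 phosphorylation.

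The labels were checked first on Trp53, the gene of p53 and the hairpin's target. Its levels were -0.35, -0.75 and -0.58 in RASV12 cells, and lay between -4.14 and -3.06 on the 9 arrays of the groups that carried shp53. All 12 fibroblast markers were well above background on every array. In RASV12, shp53-first and RASV12-first cells, 5, 6 and 6 of them were called lower than in shp53 cells. The shares of all genes called lower were 12.8%, 20.3% and 23.8%. Called higher were 0, 0 and 1 of the markers (14.3%, 17.3% and 21.7% of all genes). The median differences of the markers were -0.57, -0.84 and -1.12. In each group 2 arrays were close to each other (r across probes 0.993 to 0.998) and the other array stood apart (0.967 to 0.981). The summed level of 12 macrophage and leukocyte markers, relative to the 75th percentile on a linear scale, was 99.4 in shp53 replicates 1 and 3 and 12.54 in replicate 2. It was 9.79 to 21.1 in RASV12, 8.98 to 12.4 in shp53-first and 6.04 to 9.15 in RASV12-first cells. All 12 of these markers were well above background in shp53 cells. Ptprc and Cx3cr1 were so on no RASV12 array, and these with Adgre1, Tyrobp and Laptm5 on no shp53-first array. In RASV12-first cells Lyz2 and Cd53 joined those 5. The summed level of 8 epithelial markers was 0.731 to 0.971 in shp53 and 6.98 to 7.48 in RASV12 cells. It was 11.3 and 9.71 in the shp53-first and the RASV12-first replicate 1, the arrays that stood apart there, and 1.59 to 1.92 in their other replicates. These sums do not describe the whole list. Epcam, Cdh1 and Cldn4 were well above background on no array. Krt8 and Krt5 were so in shp53 cells only. The markers well above background numbered 2 to 5 on shp53 arrays and 2 or 3 on the others. Only 2 of the 8 were tested. Against shp53 cells, 1 was called higher in RASV12 cells and 0 lower, and 0 were called in the groups with both vectors. Endothelial markers summed to 3.02 to 4.57 in shp53, 1.87 to 3.69 in RASV12, 1.09 to 2.47 in shp53-first and 1.17 to 2.27 in RASV12-first cells. Of the 8, 5 were tested. In the last 3 groups, 2, 1 and 2 of them were called higher than in shp53 cells, and 0, 1 and 1 lower. The shares of all genes are those given for the fibroblast markers. Their median differences from shp53 cells were 2.34, 0.40 and 0.26. The part of these marker differences in the results was not tested. Where it bears on a member, the value with shp53 replicate 2 alone for that group is given, an alternative chosen after seeing the data. This arm is then 1 array, assumed to vary like the other groups, so a call can also be lost because the arm is smaller. In bulk RNA, fewer cells of a type and less RNA per cell cannot be told apart.

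The 250 bases before the RefSeq start of the 3 inducible ligands and of Socs3 are shown because the factors named above act at such promoters, with motif matches in capitals. They are from RefSeq, build GRCm38.p6, and are written 5′ to 3′ on the gene's strand. The motifs searched on both strands were AP-1 (TGANTCA), STAT (TTCNNNGAA), CRE (TGACGTCA), C/EBP (TTGCNNCAA) and kappaB by name. The letters used for C/EBP hold a base more than its usual site and cannot match it. The search therefore does not show whether these windows hold C/EBP sites.
Il6: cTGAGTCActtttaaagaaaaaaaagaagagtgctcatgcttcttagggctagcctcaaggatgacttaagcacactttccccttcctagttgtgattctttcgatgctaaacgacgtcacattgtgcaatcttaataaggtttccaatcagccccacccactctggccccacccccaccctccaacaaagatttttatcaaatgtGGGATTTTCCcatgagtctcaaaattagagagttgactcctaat
Lif: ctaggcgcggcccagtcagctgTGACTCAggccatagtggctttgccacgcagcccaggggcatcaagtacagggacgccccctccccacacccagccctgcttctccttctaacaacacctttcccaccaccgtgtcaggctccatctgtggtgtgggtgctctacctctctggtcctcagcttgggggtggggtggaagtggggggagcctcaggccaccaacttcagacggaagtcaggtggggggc
Il11: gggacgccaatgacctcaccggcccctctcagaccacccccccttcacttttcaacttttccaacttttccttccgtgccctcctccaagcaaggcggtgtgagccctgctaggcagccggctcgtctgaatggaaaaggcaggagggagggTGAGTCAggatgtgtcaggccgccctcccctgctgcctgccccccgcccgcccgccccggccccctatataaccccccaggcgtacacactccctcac
Socs3: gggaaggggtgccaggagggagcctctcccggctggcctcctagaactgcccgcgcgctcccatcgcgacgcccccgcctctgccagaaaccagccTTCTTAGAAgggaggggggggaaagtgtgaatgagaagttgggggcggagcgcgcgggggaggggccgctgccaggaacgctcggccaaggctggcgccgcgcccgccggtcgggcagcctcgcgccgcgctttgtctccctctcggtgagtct
The Il6 window is chr5:30012864-30013113 on the plus strand, with an AP-1 match from -249 to -243 and a kappaB match from -44 to -35, counted from the start. The Lif window, chr11:4257318-4257567 on the plus strand, holds an AP-1 match from -228 to -222. Il11 has 2 starts in the table, both on the minus strand. The window shown, chr7:4778142-4778391, holds an AP-1 match from -98 to -92, and the other, chr7:4782858-4783107, held no match. The Socs3 window, chr11:117969367-117969616 on the minus strand, holds a STAT match from -154 to -146. Of 32851 promoter windows of this length, 6.75% held the AP-1 motif, 7.02% the STAT motif, 3.9% kappaB, 1.74% the letters used for C/EBP and 1.55% CRE. The windows of Il6st, Lifr, Osmr, Il11ra1 and Stat3 held no match of the 5 motifs as written. A match is a string of letters and not evidence of binding, and lower case letters do not show that a site is absent.

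Among the ligands, Il6, Lif and Il11 were each higher in RASV12 and in shp53-first cells than in shp53 cells, by 4.73-fold to 22.1-fold. They parted in the RASV12-first cells. Against shp53 cells, Lif was 12.45-fold higher there, Il11 differed by 0.76 (adjusted p = 0.159) and Il6 by -1.82 (adjusted p = 0.0341). Against shp53-first cells, Il6 was 16.7-fold and Il11 7.51-fold lower, and Lif differed by -0.19 (adjusted p = 0.686). Clcf1 passed the test in none of the 6 comparisons.

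Il6 encodes interleukin 6, an inflammatory cytokine. Its levels were 2.08, -0.49 and 2.08 in shp53, 4.70, 4.08 and 4.64 in RASV12, 3.89, 3.30 and 3.21 in shp53-first, and -1.34, -0.22 and -0.24 in RASV12-first cells. The RASV12 arrays lay above all others and shp53-first arrays came next. shp53 replicate 2 fell among the RASV12-first arrays, and the other shp53 arrays lay between the 2 double groups. The difference of RASV12 from shp53 was 3.25 ± 0.62 (9.49-fold, adjusted p = 0.00325), and that of shp53-first from shp53 cells was 2.24 (4.73-fold, adjusted p = 0.0169). RASV12-first cells were lower than RASV12 cells by 33.6-fold (-5.07, adjusted p = 0.000178) and lower than shp53-first cells by 16.7-fold (-4.07, adjusted p = 0.00155). These groups did not overlap. The difference between shp53-first and RASV12 cells was -1.01 (95% interval -2.38 to 0.37, adjusted p = 0.265), although their arrays did not overlap. RASV12-first cells were also 3.54-fold lower than shp53 cells (-1.82, adjusted p = 0.0341), but those groups overlapped. The 2 high shp53 arrays are those with the high macrophage marker sum. With replicate 2 alone for shp53, Il6 differed by 4.96 from RASV12 (adjusted p = 0.001), by 3.96 from shp53-first (adjusted p = 0.001) and by -0.11 from RASV12-first cells (adjusted p = 0.9). The call of RASV12-first against shp53 cells was lost in 11 of 24 alternatives. Among them were leaving out shp53 replicate 1 or 3, or any RASV12-first replicate (adjusted p 0.0525 to 0.129). The call of shp53-first against shp53 cells was lost in 3 of 24, and that of RASV12 against shp53 cells in 1 of 24.

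Lif encodes leukaemia inhibitory factor, which signals through the LIF receptor and gp130. Its levels were -5.29, -5.02 and -4.86 in shp53, -0.42, -0.77 and -0.58 in RASV12, -0.54, -1.64 and -1.50 in shp53-first, and -1.42, -1.49 and -1.35 in RASV12-first cells. Every array with RASV12, in either order, lay above every shp53 array, with a gap of over 3 log2 units, and the shp53 arrays were close to each other whatever their macrophage marker sum. The difference from shp53 was 4.46 ± 0.26 in RASV12 (22.1-fold, adjusted p = 2.91e-06), 3.83 in shp53-first (14.2-fold, adjusted p = 4.02e-06) and 3.64 in RASV12-first cells (12.45-fold, adjusted p = 2.88e-06). The 2 orders of transduction differed by -0.19 (RASV12-first less shp53-first, 95% interval -0.76 to 0.38, adjusted p = 0.686). RASV12-first cells lay 1.77-fold below RASV12 cells (-0.83, adjusted p = 0.028) without overlap, and shp53-first cells differed from RASV12 cells by -0.64 (interval -1.21 to -0.06, adjusted p = 0.0979). The 1.77-fold call was lost in 8 of 24 alternatives, among them scaling by the array median (-0.56, adjusted p = 0.128) and leaving out RASV12 replicate 1 or 3 or any RASV12-first replicate (0.0501 to 0.092). The calls against shp53 were lost only under normexp background correction, which adds an offset of 50 to each signal and left differences of 1.07, 0.68 and 0.81.

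Il11 encodes interleukin 11. Its levels were -0.97, -0.65 and -0.86 in shp53, 1.15, 2.28 and 1.30 in RASV12, 3.85, 2.43 and 2.24 in shp53-first, and 0.23, -0.31 and -0.12 in RASV12-first cells. The shp53 arrays were lowest and the RASV12-first arrays next, without overlap. RASV12 replicate 2 reached into the range of the shp53-first arrays, which were highest. Il11 was 5.29-fold higher in RASV12 than in shp53 cells (2.40 ± 0.41, adjusted p = 0.00186) and 12.7-fold higher in shp53-first cells (3.67, adjusted p = 9.81e-05). RASV12-first cells differed from shp53 cells by 0.76 (interval -0.16 to 1.68, adjusted p = 0.159), and were called higher in 4 of 24 alternatives. They were 3.13-fold lower than RASV12 cells (-1.64, adjusted p = 0.0107) and 7.51-fold lower than shp53-first cells (-2.91, adjusted p = 0.00105). The 2.4-fold higher level in shp53-first than in RASV12 cells (1.26, adjusted p = 0.0477) was lost in 16 of 24 alternatives. These include leaving out any shp53 replicate, RASV12 replicate 1 or 3, shp53-first replicate 1 or 2, or RASV12-first replicate 2 or 3 (adjusted p 0.0568 to 0.16), and without shp53-first replicate 1 the difference was 0.76. With shp53 replicate 2 alone, the difference between RASV12 and shp53 was 2.23 (adjusted p = 0.0609).

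Clcf1 encodes cardiotrophin-like cytokine factor 1, a ligand that also signals through gp130. Its levels ran from -2.65 to -1.99 in shp53, -2.43 to -1.77 in RASV12, -2.14 to -2.01 in shp53-first, and -3.41 to -2.15 in RASV12-first cells. The groups overlapped except for the 2 double groups, which were set apart only by a narrow gap. Its adjusted p lay between 0.154 and 0.965 over the 6 comparisons, and the difference between the 2 orders was -0.57 (interval -1.26 to 0.12).

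**Figure D1:**
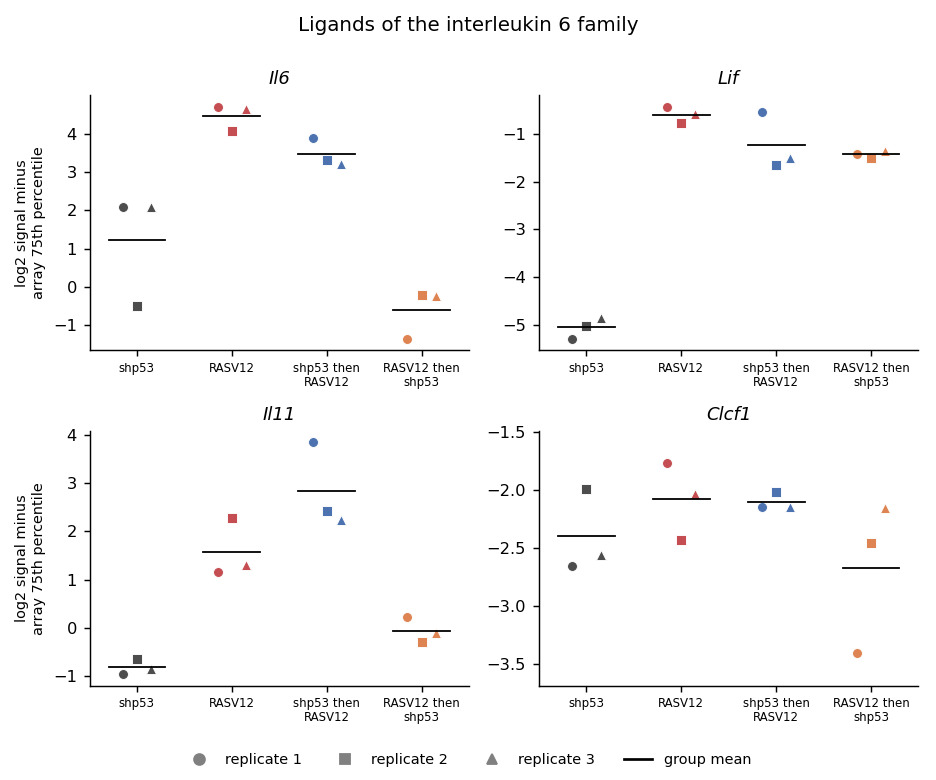
Level of Il6, Lif, Il11 and Clcf1 on each array (y axis, log2 signal minus the array's 75th percentile, a separate scale in each panel) in the 4 groups (x axis); points are arrays, shaped by replicate, and lines are group means. Lif is low only in shp53 cells, at a mean of -5.06, while Il6 and Il11 have means of -0.60 and -0.07 in RASV12-first cells and 3.47 and 2.84 in shp53-first cells.

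Among the receptor subunits, Il6st and Lifr were 3.67-fold to 4.9-fold lower in every group with RASV12 than in shp53 cells, and neither passed the test among the 3 groups that carried RASV12. Without the 4 arrays that stood apart, Il6st was called lower in RASV12-first than in RASV12 (-0.34, adjusted p = 0.024) and shp53-first cells (-0.38, adjusted p = 0.0223), and Lifr lower in RASV12-first than in shp53-first cells (-0.25, adjusted p = 0.0302). That alternative was chosen after seeing the data and keeps only the closest pair of each group, which narrows the spread. It called 65.3% and 46.4% of all genes in RASV12-first against RASV12 and shp53-first cells, so these calls say little about single genes. Osmr was also highest in shp53 cells and was lowest in RASV12-first cells. Il11ra1 was lower only in the comparison of RASV12 with shp53 cells, and that call was lost in 10 of 24 alternatives.

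Il6st encodes gp130, the subunit that all these receptors share. Its levels were 3.24, 2.83 and 3.16 in shp53, 1.03, 1.14 and 0.98 in RASV12, 1.51, 1.18 and 0.92 in shp53-first, and 1.14, 0.66 and 0.68 in RASV12-first cells. The shp53 arrays, replicate 2 included, lay above the other 9, which overlapped. It was 4.08-fold lower in RASV12 (-2.03 ± 0.19, adjusted p = 4.83e-05), 3.67-fold lower in shp53-first (-1.88, adjusted p = 5.39e-05) and 4.77-fold lower in RASV12-first cells (-2.25, adjusted p = 1.06e-05). These 3 calls held in every alternative tried, and with shp53 replicate 2 alone the differences were -1.78, -1.63 and -2.00. Between the 2 orders the difference was -0.38 (interval -0.81 to 0.05, adjusted p = 0.229).

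Lifr encodes the LIF receptor, which pairs with gp130. Its levels were 0.73, -0.03 and 0.69 in shp53, -1.87, -1.61 and -2.00 in RASV12, -1.20, -1.87 and -1.89 in shp53-first, and -1.09, -2.15 and -2.12 in RASV12-first cells. The shp53 arrays again lay above the other 9. The differences from shp53 were -2.29 ± 0.32 in RASV12 (4.9-fold, adjusted p = 0.000561), -2.12 in shp53-first (4.35-fold, adjusted p = 0.000655) and -2.25 in RASV12-first cells (4.76-fold, adjusted p = 0.000336). Among the other 3 groups the adjusted p was 0.738 to 0.93, with intervals that reach from -0.85 to 0.89. Lifr had 2 further probes, and both had their highest group mean in shp53 cells. The dimmest was well above background on all 3 shp53 arrays, on 2 shp53-first arrays and on none of the other groups. With shp53 replicate 2 alone the differences were -1.80, -1.63 and -1.76 (adjusted p 0.036, 0.042 and 0.026). Under normexp the calls in the 2 double groups were lost (adjusted p 0.0813 and 0.171).

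Osmr encodes the oncostatin M receptor, which also pairs with gp130. Its levels were 4.47, 3.95 and 4.45 in shp53, 3.41, 3.20 and 3.47 in RASV12, 4.06, 3.34 and 3.27 in shp53-first, and 2.64, 2.48 and 2.39 in RASV12-first cells. The RASV12-first arrays lay below the other 9, and shp53-first replicate 1 reached into the shp53 range. RASV12-first cells were 3.46-fold below shp53 (-1.79 ± 0.22, adjusted p = 0.00013), 1.81-fold below RASV12 (-0.86, adjusted p = 0.0123) and 2.08-fold below shp53-first cells (-1.06, adjusted p = 0.00958). RASV12 cells were 1.91-fold (-0.93, adjusted p = 0.0111) and shp53-first cells 1.66-fold (-0.73, adjusted p = 0.026) below shp53 cells. Both of these were lost with shp53 replicate 2 alone (-0.59 and -0.40, adjusted p 0.297 and 0.461), and that of shp53-first cells also without shp53 replicate 1 or 3 or shp53-first replicate 2 or 3 (0.0907 to 0.0965). The comparison with RASV12 cells missed the threshold under scaling by the array median (-0.60, adjusted p = 0.0573).

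Il11ra1 encodes the interleukin 11 receptor subunit. Its levels were 4.66, 5.02 and 4.62 in shp53, 3.84, 3.67 and 3.85 in RASV12, 4.88, 4.02 and 4.15 in shp53-first, and 4.88, 3.93 and 3.82 in RASV12-first cells. The RASV12 arrays lay below all shp53 arrays, and replicate 1 of each double group lay in the shp53 range. The difference of RASV12 from shp53 was -0.98 ± 0.30 (1.97-fold, adjusted p = 0.0328), and it missed the threshold when any 1 shp53 or RASV12 replicate was left out (adjusted p 0.0649 to 0.0911). In the other comparisons the adjusted p was 0.149 to 0.805.

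STAT3, the transcription factor that all the receptors activate, had Stat3 levels of 3.48, 3.24 and 3.59 in shp53, 2.73, 3.20 and 2.96 in RASV12, 3.06, 2.56 and 2.82 in shp53-first, and 2.04, 2.29 and 2.08 in RASV12-first cells. The RASV12-first arrays were below the other 9. RASV12-first cells were 2.46-fold below shp53 (-1.30 ± 0.18, adjusted p = 0.000223), 1.77-fold below RASV12 (-0.83, adjusted p = 0.00446) and 1.6-fold below shp53-first cells (-0.68, adjusted p = 0.0257). The last call was lost in 11 of 25 alternatives. Its adjusted p was 0.0654 with the 2 orders fitted alone and the replicate number as a block. It also missed the threshold without shp53-first replicate 1 or 3 or RASV12-first replicate 1 or 3 (0.0528 to 0.0825). A second, dimmer Stat3 probe also had its highest mean in shp53 cells (-2.84) and its lowest in RASV12-first cells (-3.73). Its RASV12 mean was close to the latter (-3.55). RASV12-first replicate 1, at -2.77, lay in the shp53 range of that probe, so there the RASV12-first arrays were not set apart. On the brighter probe, shp53-first cells were 1.54-fold below shp53 cells (-0.62, adjusted p = 0.0186). With shp53 replicate 2 alone that difference was -0.42 (adjusted p = 0.337), and it missed the threshold without shp53 replicate 1 or 3 or shp53-first replicate 2 (0.0617 to 0.0761). RASV12 differed from shp53 cells by -0.47 (adjusted p = 0.0713).

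Socs3, the feedback inhibitor, had levels of 2.08, 1.45 and 2.12 in shp53, 2.35, 2.04 and 2.28 in RASV12, 2.45, 1.82 and 1.77 in shp53-first, and 1.73, 2.26 and 2.22 in RASV12-first cells. All 4 groups overlapped, and the lowest adjusted p was 0.339. The shp53 arrays were split like the macrophage marker sum, with replicate 2 lowest. With that array alone for shp53, the differences were 0.77 in RASV12, 0.56 in shp53-first and 0.62 in RASV12-first cells. With all arrays, the intervals of the 6 differences reached from -0.75 to 0.89, so log2 changes within each interval were not excluded. The double groups were split too: RASV12-first cells were lower in replicate 1 and higher in the others. Without the 4 arrays that stood apart, Socs3 was called higher in RASV12-first than in shp53-first cells (0.44, adjusted p = 0.0029). It was then called lower in shp53-first than in RASV12 cells (-0.52, adjusted p = 0.00101). That alternative called 46.4% and 56.9% of all genes there.

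**Figure D2:**
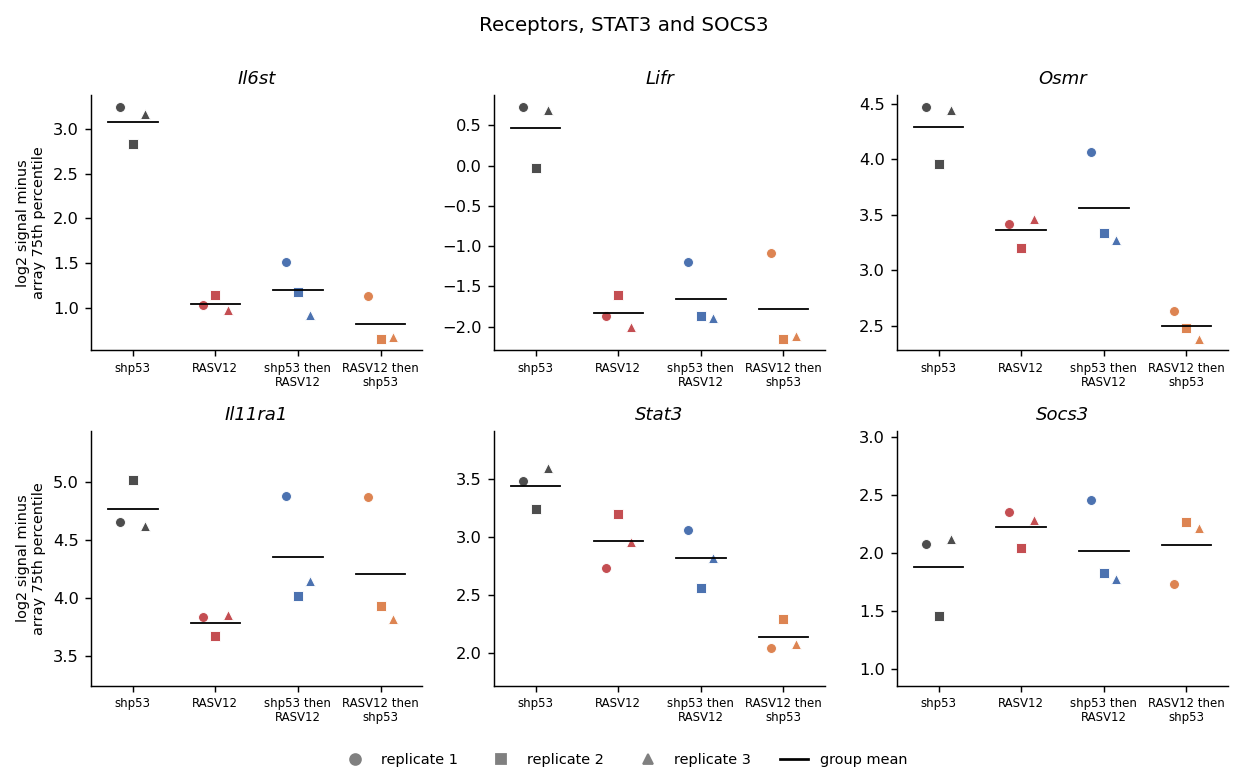
Level of Il6st, Lifr, Osmr, Il11ra1, Stat3 and Socs3 on each array (y axis, log2 signal minus the array's 75th percentile, a separate scale in each panel) in the 4 groups (x axis); points are arrays, shaped by replicate, and lines are group means. The shp53 mean of Il6st is 3.08 against 0.83 to 1.20 elsewhere, and in RASV12-first cells Osmr has a mean of 2.50 and Stat3 of 2.14, the lowest of the 4 groups, while the Socs3 arrays of all groups overlap.

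Counted over the 10 members, 3 were higher and 4 lower in RASV12 than in shp53 cells, where 27.1% of all genes tested were called, 14.3% higher and 12.8% lower. In shp53-first against shp53 cells 3 were higher and 4 lower, against 37.6% of all genes (17.3% higher, 20.3% lower). In RASV12-first against shp53 cells 1 was higher, which was Lif, and 5 lower, against 45.5% (21.7% higher, 23.8% lower). Against RASV12 cells, 1 member was higher in shp53-first cells (25.4% of all genes, 10.3% higher and 15.1% lower), and in RASV12-first cells 0 were higher and 5 lower (38.8% of all genes, 17.2% higher and 21.7% lower). Between the 2 orders 4 members were lower in RASV12-first cells, namely Il6, Il11, Osmr and Stat3, and 0 higher, where 15.8% of all genes were called, 7.33% higher and 8.47% lower. The 3 comparisons with shp53 share its arrays, and these counts in 10 chosen genes are a description. The groups did not overlap for 8, 6, 6, 2, 5 and 5 members in the 6 comparisons, in the same order, and for 51.1%, 53.2%, 56.4%, 43.5%, 51% and 32% of all genes. Without the array that stood apart in each group, the members called were 10, 10, 8, 5, 7 and 7, where 58%, 67.8%, 71.6%, 56.9%, 65.3% and 46.4% of all genes were called. With the closest pair of each group averaged into 1 value they were 3, 4, 5, 0, 1 and 1 (7.08%, 11.8%, 17.2%, 2.71%, 10.3% and 2.92% of all genes), and under normexp 3, 2, 1, 0, 1 and 1 (3.02%, 2.66%, 2.41%, 1.34%, 5.7% and 0.45%). The median difference of the members was -0.93 in RASV12-first against shp53 cells, -0.71 against RASV12 and -0.48 against shp53-first cells, where the median of all genes was 0.02, -0.07 and 0.00. Scaling by the array median moved those medians of all genes to 0.36, 0.19 and 0.25. No called member changed direction under it, though Osmr, Stat3, Lif and Il6 each lost a call in RASV12-first cells.

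**Figure D3:**
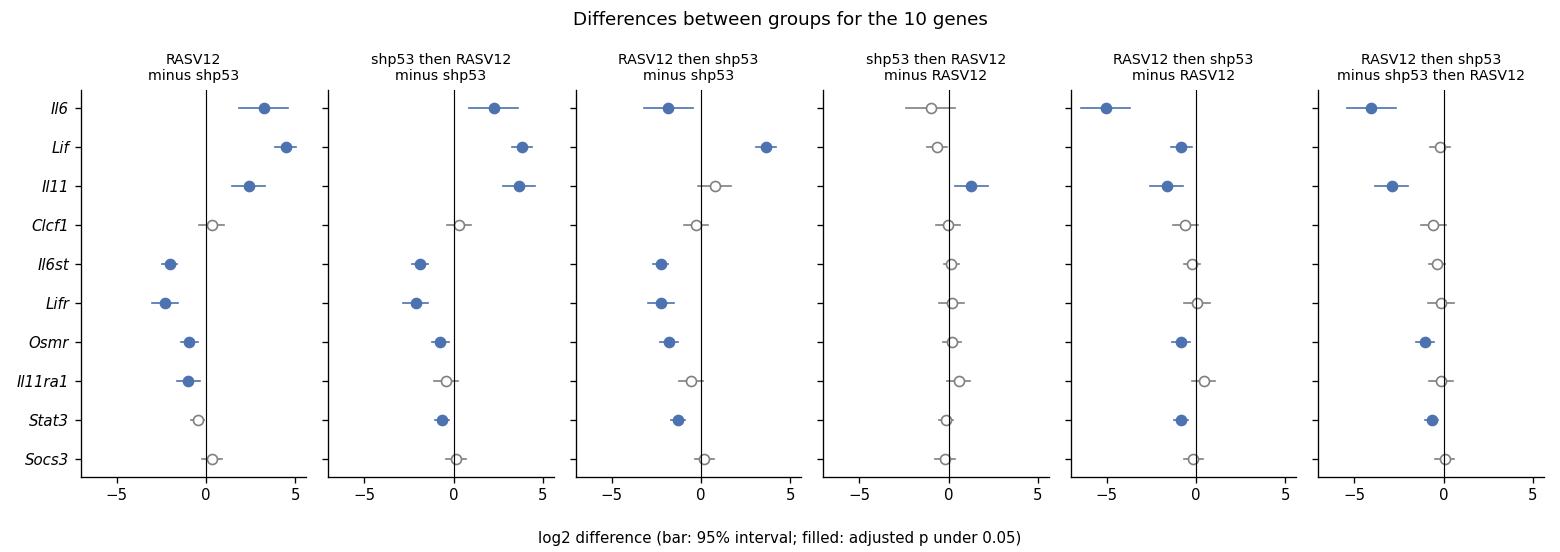
Log2 difference of each member (rows) in the 6 pairwise comparisons (panels), with the 95% interval from limma; filled points have an adjusted p under 0.05. Il6st and Lifr lie near -2 in the 3 comparisons with shp53, and in RASV12-first less shp53-first cells Il6 lies at -4.07, Il11 at -2.91, Osmr at -1.06 and Stat3 at -0.68.

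Of the other ligands of the family, 5 of 8 were tested, and Osm, Ctf2 and Il31 did not pass the filter. Ctf1, cardiotrophin 1, was lower in RASV12 than in shp53 cells (-1.11 ± 0.22, adjusted p = 0.00428) and higher than RASV12 in shp53-first (1.49, adjusted p = 0.00129) and RASV12-first cells (1.25, adjusted p = 0.00173). Ebi3, a subunit of interleukin 27, was at 0.08 and 0.01 in shp53 replicates 1 and 3, at -4.17 in replicate 2, and at -6.42 to -3.55 elsewhere. Its difference of RASV12 from shp53 was -2.95 (adjusted p = 0.0416), and -0.14 (adjusted p = 0.916) with replicate 2 alone. The 2 high arrays are those with the high macrophage marker sum. It also missed the threshold without any 1 of 9 arrays, shp53 replicates 1 and 3 among them (-2.23 and -2.27, both adjusted p = 0.154). Il27, the other subunit, was 1.52-fold lower in RASV12-first than in RASV12 cells (-0.61, adjusted p = 0.00834), a call lost under scaling by the array median (-0.35, adjusted p = 0.139).

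Of the other receptors, 3 of 5 were tested. Il31ra did not pass the filter, and Il11ra2 was matched to no probe. Il6ra encodes the subunit that binds interleukin 6 itself. Its levels were 1.54, -0.03 and 1.42 in shp53, 0.41, 0.72 and 0.05 in RASV12, 1.23, 0.32 and 0.26 in shp53-first, and 1.96, 2.07 and 1.75 in RASV12-first cells. The RASV12-first arrays lay above the other 9. Il6ra was 2.89-fold higher there than in RASV12 cells (1.53 ± 0.41, adjusted p = 0.0137), and the differences from shp53-first (1.33, adjusted p = 0.0515) and shp53 cells (0.95, adjusted p = 0.0808) did not pass. Without RASV12 replicate 3 the first of these was 1.36 (adjusted p = 0.0531). Il27ra was at least 1.53-fold lower in RASV12-first than in shp53-first cells (adjusted p = 0.00137), as no RASV12-first array was well above background. Cntfr passed in no comparison.

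Among 14 kinases, STATs and inhibitors, 6 were higher and 3 lower in RASV12-first than in RASV12 cells (17.2% and 21.7% of all genes), 4 and 2 in shp53-first than in RASV12 cells (10.3% and 15.1%), and 2 and 0 in RASV12-first than in shp53-first cells (7.33% and 8.47%). Against shp53 cells the counts were 0 higher and 3 lower in RASV12 (14.3% and 12.8%), 2 and 2 in shp53-first (17.3% and 20.3%), and 3 and 4 in RASV12-first cells (21.7% and 23.8%). Socs1, an inhibitor of JAK kinases, had levels of 0.66 to 0.78 on all 6 arrays of the double groups and -0.70 to -0.21 on the other 6. It was 2.19-fold higher than in shp53 cells in shp53-first (1.13 ± 0.14, adjusted p = 0.000144) and 2.12-fold higher in RASV12-first cells (1.09, adjusted p = 0.000135). Cish, another inhibitor of the family, was lower in both, by -1.16 ± 0.24 (adjusted p = 0.0037) and -1.07 (adjusted p = 0.00454). Jak1, the main kinase at gp130, was lower in both as well, by -0.79 ± 0.17 (adjusted p = 0.00511) and -0.82 (adjusted p = 0.00318). With shp53 replicate 2 alone these differences did not pass, at -0.87 and -0.77 for Cish (adjusted p 0.139 and 0.159) and -0.45 and -0.48 for Jak1 (adjusted p 0.219 and 0.164). Socs2 was 2.62-fold higher in RASV12-first than in shp53-first cells (1.39 ± 0.26, adjusted p = 0.00531) and 3.97-fold higher than in RASV12 cells (1.99, adjusted p = 0.000283).

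Of 18 genes known as STAT3 response genes in various cells, 17 were tested and Lrg1 did not pass the filter. Against shp53 cells, 6 were higher and 2 lower in RASV12 (14.3% and 12.8% of all genes), 6 and 4 in shp53-first (17.3% and 20.3%), and 5 and 6 in RASV12-first cells (21.7% and 23.8%). Against RASV12 cells 0 were higher and 2 lower in shp53-first cells (10.3% and 15.1%), and 1 and 6 in RASV12-first cells (17.2% and 21.7%). In RASV12-first against shp53-first cells 5 were lower and 0 higher, where 8.47% and 7.33% of all genes were. Lcn2 encodes lipocalin 2, an iron-binding acute phase protein. Its levels were -2.57, -4.31 and -2.52 in shp53, 5.40, 5.53 and 5.54 in RASV12, 6.28, 4.37 and 4.56 in shp53-first, and 1.64, 0.09 and 0.01 in RASV12-first cells. RASV12 and shp53-first arrays overlapped and lay above RASV12-first arrays, which lay above shp53 arrays. Lcn2 was 295-fold higher in shp53-first (8.20 ± 0.63, adjusted p = 9.17e-06) and 13.1-fold higher in RASV12-first than in shp53 cells (3.71, adjusted p = 0.000941), and 22.5-fold lower in RASV12-first than in shp53-first cells (-4.49, adjusted p = 0.000963).

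Hp encodes haptoglobin, which binds free haemoglobin. Its levels were 1.18, -1.31 and 1.22 in shp53, 3.15, 3.36 and 3.35 in RASV12, 0.86, -2.04 and -2.16 in shp53-first, and -5.56 to -6.45 in RASV12-first cells. No RASV12-first array was well above background. Hp was therefore at least 27.2-fold lower there than in shp53-first (adjusted p = 0.00298), at least 573-fold lower than in RASV12 (adjusted p = 2.24e-05) and at least 75.6-fold lower than in shp53 cells (adjusted p = 0.000178). The first bound was 13.7-fold without shp53-first replicate 1. The last was 135-fold without shp53 replicate 2 and 23.7-fold with that array alone. Steap4, a metalloreductase, was well above background on only 1 of the 3 shp53 arrays and on all 9 others. Its shp53 levels were -6.44, -8.19 and -5.65, so the size of its differences is uncertain. It was higher than in shp53 cells by 6.02 ± 0.61 in RASV12 (adjusted p = 6.81e-05), 6.74 in shp53-first (adjusted p = 2.32e-05) and 4.52 in RASV12-first cells (adjusted p = 0.000214), which normexp reduced to 0.91, 1.65 and 0.54 (adjusted p 0.294, 0.213 and 0.913). It was 4.65-fold lower in RASV12-first than in shp53-first cells (adjusted p = 0.0326). The last call was lost without RASV12 replicate 3, shp53-first replicate 1 or 2, or RASV12-first replicate 2 or 3 (adjusted p 0.05 to 0.105). Il4ra, the interleukin 4 receptor, was lower than in shp53 cells by -3.19 ± 0.43 in shp53-first (adjusted p = 0.000304) and -3.45 in RASV12-first cells (adjusted p = 0.000129). Its shp53 levels were 1.08 or more in replicates 1 and 3 and -0.88 in replicate 2, split like the macrophage marker sum, and with replicate 2 alone the differences were -1.88 and -2.13.

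Of 17 inducers of Il6 and Lif and regulators of their mRNA, 15 were tested, and Il1b and Tnf did not pass the filter. Against shp53 cells 8 were higher and 1 lower in RASV12 (14.3% and 12.8% of all genes), 9 and 2 in shp53-first (17.3% and 20.3%), and 8 and 3 in RASV12-first cells (21.7% and 23.8%). In RASV12-first against shp53-first cells 1 of 15 was lower and 0 higher, where 8.47% and 7.33% of all genes were. Fosl1 encodes the AP-1 subunit FRA1. Its levels were -2.02, -1.32 and -2.13 in shp53 and 1.12 to 1.68 on the other 9 arrays. The groups with RASV12 overlapped, and the difference from shp53 was 3.25 ± 0.22 in shp53-first (adjusted p = 3.61e-06) and 3.33 in RASV12-first cells (adjusted p = 1.47e-06). Nfkbia, an inhibitor and target of NF-kappaB, was higher by 1.96 ± 0.19 in RASV12 (adjusted p = 4.97e-05), 2.16 in shp53-first (adjusted p = 1.9e-05) and 2.07 in RASV12-first cells (adjusted p = 1.58e-05). Nfkbiz, a nuclear cofactor of NF-kappaB known for inducing Il6, was higher by 2.01 ± 0.21 (adjusted p = 9.37e-05), 1.56 (adjusted p = 0.000337) and 0.96 (adjusted p = 0.00446) in the same groups, and lower in RASV12-first than in RASV12 cells (-1.05, adjusted p = 0.00348). Il1a, interleukin 1 alpha, was well above background on the 3 RASV12 arrays and on no other array. It was at least 35.6-fold lower in shp53-first (adjusted p = 2.42e-06) and at least 33.6-fold lower in RASV12-first than in RASV12 cells (adjusted p = 6.37e-07).

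**Figure D4:**
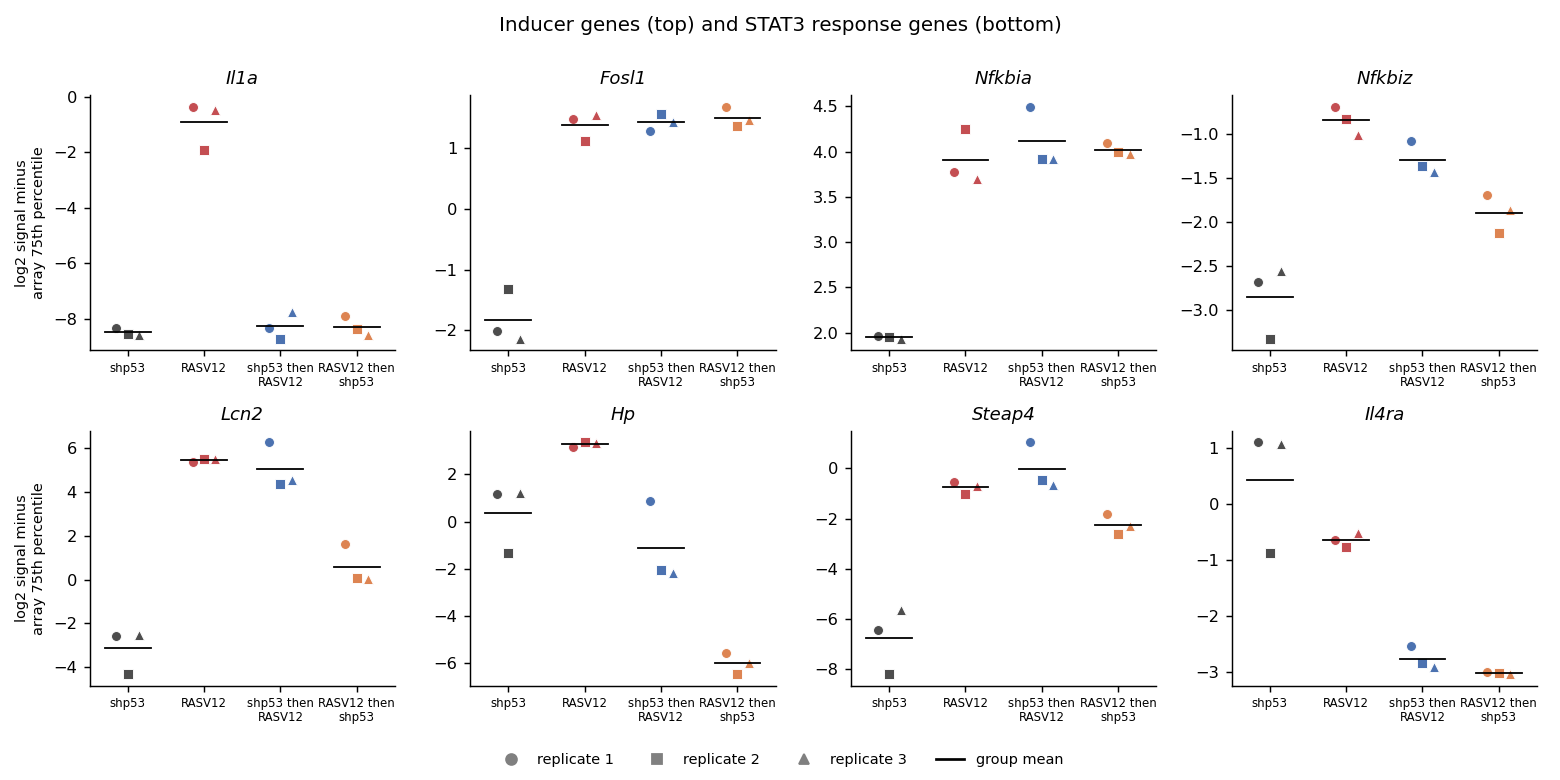
Level of 4 inducer genes (Il1a, Fosl1, Nfkbia and Nfkbiz, top) and 4 STAT3 response genes (Lcn2, Hp, Steap4 and Il4ra, bottom) on each array (y axis, log2 signal minus the array's 75th percentile, a separate scale in each panel) in the 4 groups (x axis); points are arrays, shaped by replicate, and lines are group means. Fosl1 and Nfkbia are close in the 3 groups with RASV12 (arrays at 1.12 to 1.68 for Fosl1, means of 3.91 to 4.11 for Nfkbia), Lcn2 has a mean of 0.58 in RASV12-first against 5.07 in shp53-first cells, and Il1a outside RASV12 cells and Hp in RASV12-first cells are not well above background.

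The genes whose levels followed each inducible ligand most closely over the 12 arrays are a description, since the arrays share their groups. For Il6 they were Cp, which encodes ceruloplasmin (Pearson r = 0.98), Gvin1 (0.97) and Cflar (0.97), an inhibitor of caspase 8. Cp had levels of 2.59 to 3.20 in RASV12, 0.74 to 2.75 in shp53-first and -3.44 to -3.19 in RASV12-first cells, and -0.53, -3.08 and -0.53 in shp53 cells, the same split of the shp53 arrays as for Il6. For Lif they were Hao1, Upp1 and Ptges (each 0.98). Upp1, uridine phosphorylase 1, was at -4.54 to -4.43 in shp53 cells and 1.37 to 2.77 on the other 9 arrays. Ptges, a prostaglandin E synthase, was at 3.56 to 3.81 in shp53 cells and 4.56 to 5.06 on the others. For Il11 they were Odc1, the ornithine decarboxylase of polyamine synthesis, the transcription factor gene Tbx3, and Liph (each 0.97). Odc1 was at 5.43 to 6.18 in shp53-first, 4.96 to 5.26 in RASV12, 3.56 to 3.75 in RASV12-first and 3.22 to 3.34 in shp53 cells. Among the members, Il6st and Lifr had r = 0.98 over the 12 arrays, Lif and Il6st -0.92, Osmr and Stat3 0.92, Il11 and Lif 0.70, Il6 and Il11 0.65, and Il6 and Lif 0.38.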

How the data were processed

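Feature Extraction (Agilent) gave the signal intensity that the authors deposited for every spot. Per the file headers, it was corrected for background within an array and not scaled between arrays. Median pixel intensities of spots and local backgrounds stand beside it. The deposited files also hold flags for spots well above background, outlying or saturated, which are another kind of value. The version is 11.5.1.1 in the headers and 10.7.3.1 in the submitters' processing notes. The headers name genome build mm9, so RefSeq coordinates (GRCm38.p6) are given only for the promoter windows and not for probes or genes. Log2 values of 25916 probes, which the authors deposited as well, followed the values rebuilt here with r from 0.990 across probes.

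From the log2 processed signal, the 75th percentile of an array's non-control spots was subtracted, and a probe's spots were averaged. Outlier spots (0.333%) were left out, 0 were saturated, and 56.6% to 62.4% of spots were well above background. Probes that some group measured well above background on each of its 3 arrays were kept (23910 probes), and the brightest kept probe stood for a gene. Accessions were named through RefSeq, which left 11099 of 39429 probes without a name. With R 4.3.3 and version 1.17.8 of data.table, limma 3.58.1 fitted the 12 arrays with 1 mean a group and was tested on simulated data. The spread is that between these arrays, and their number limits the precision. An exact permutation test of 3 arrays against 3 cannot go below 0.1. For folds written "at least", each dim array took its lowest well-measured signal or the probe's own signal, whichever was higher. The mean over those arrays was the dim side.

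The members, lists and tests were chosen with earlier results of these data known. Named genes were all members, up to 4 of each pathway list with the smallest adjusted p, the 3 genes closest to Il6, Lif and Il11 by Pearson r, Trp53 and Il11ra2; 1 gene that the rule takes is not reported here. Replicate numbers equal slides, and each slide holds 1 array of each group. In the shp53-first and RASV12-first cells, same-numbered arrays deviated together (r 0.60, 0.45 and 0.32). Pairing by number, taken from the data and not the labels, was therefore fitted as an alternative only. The main differences between these groups are unpaired. Arrays 2 and 3 also deviated together across numbers (0.49 and 0.42), so the numbers may not be what they share. Alternatives were normexp background correction (on median pixel signals, as the mean was not in the files read here), quantile scaling, the array median, no filter, the mean of a gene's probes, a replicate block, 2 groups alone, the authors' values and leaving out each array.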

Additional observations from a re-analysis of the deposited data

How the results depend on the processing

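Over 60 combinations of a member and a comparison and up to 25 alternatives, 1322 of 1450 values kept their side of the threshold (1275 with the same sign, 47 with another sign and no call), 101 lost a call, 26 gained a call and 1 reversed. The comparisons are given in the order RASV12, shp53-first and RASV12-first cells against shp53, then shp53-first and RASV12-first against RASV12, then RASV12-first against shp53-first cells. They had 3917, 5432, 6578, 3664, 5610 and 2282 genes called. Under normexp the genes called were 436, 384, 348, 194, 823 and 65, with 3, 2, 1, 0, 1 and 1 members. With extreme local backgrounds (over 5 times the median) replaced, chosen after seeing the data like the next 3 alternatives, the last comparison had 1299 genes and shp53-first against RASV12 cells had 0 members. With the closest pairs averaged the genes called were 1023, 1700, 2481, 391, 1491 and 422, with 3, 4, 5, 0, 1 and 1 members, from fewer samples. Without the 4 arrays that stood apart they were 8633, 10089, 10660, 8471, 9718 and 6905, with 5 members in shp53-first against RASV12 cells and 7 between the 2 orders; there Socs3 in shp53-first against shp53 cells reversed to -0.30 (adjusted p = 0.00775). With shp53 replicate 2 alone, the comparisons with shp53 had 1776, 2395 and 3123 genes, with 4 members called in RASV12 cells, and shp53-first against RASV12 cells had 0 members. The last comparison had 1351 genes with 2 groups alone. No filter, or a replicate block, left 0 members in shp53-first against RASV12 cells, and the array median left 3 in RASV12-first against RASV12 cells. The replicate block over 4 groups changed the genes called to 3934, 5551, 6672, 3744, 5709 and 2267, and among members lost only the Il11 call between shp53-first and RASV12 cells (adjusted p = 0.0616). With the block on the 2 double groups alone, also chosen after seeing the data, 2775 genes and 3 members were called. Leaving out 1 array gave 2720 to 4709, 3814 to 6279, 4989 to 7417, 2154 to 4534, 4163 to 6305 and 1489 to 2813 genes, with 6 to 7, 5 to 7, 5 to 7, 0 to 1, 4 to 5 and 3 to 4 members. The share of calls that were higher in RASV12-first cells was 47.7%, 44.2% and 46.4% against shp53, RASV12 and shp53-first cells, and 68.6%, 63.6% and 68.5% under the array median. Under normexp it was 27.6% against shp53 and 21.5% against shp53-first cells. With the closest pairs averaged it was 33.0% against RASV12 and 22.3% against shp53-first cells, and 29.9% in shp53-first against RASV12 cells. Il27ra reversed in RASV12-first against shp53 cells with extreme backgrounds replaced (0.089) and against shp53-first cells under normexp (0.56), as did Il27 against RASV12 cells under normexp (0.47). The cause was not tested.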
